A study of Mus musculus with 14 samples.

Results

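E0771 is a mammary carcinoma line that arose in a C57BL/6 mouse, and its transcriptome under a RIG-I agonist was set against that under a control agonist, gene by gene. The comparison used 4 of the 14 libraries of the study, 2 from each agonist, chosen by their labels. Each well was seeded with 100000 cells and received 0.5 ug/ml of either agonist for 24 h. Poly(A)-selected, stranded RNA libraries were then sequenced. The study concerns RIG-I activation inside tumour cells, and its other 10 libraries came from the mouse colon tumour lines MC38 (4) and CT26 (6). No untreated E0771 cells were analysed here, so changes are given against the control agonist alone. The chemical nature of both agonists and the way they were delivered are not given in the labels. They also do not state whether replicates were separate cultures, and p-values therefore reflect only how far these libraries differ, which may be technical.

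RIG-I, the product of Ddx58, is a cytosolic helicase that binds RNA with features of viral genomes. It signals through the mitochondrial adaptor MAVS to the kinases TBK1 and IKK-epsilon, which activate the transcription factors IRF3, IRF7 and NF-kB, and these switch on interferon beta. Secreted interferon then acts through its receptor, JAK kinases, STAT proteins and IRF9 to induce a large set of interferon-stimulated genes, many of which carry a sequence called the interferon-stimulated response element (ISRE) close to their start.

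Of 11728 genes tested, 180 (1.53%) were called higher with the RIG-I agonist and 3 (0.0256%) were called lower (edgeR quasi-likelihood test, Benjamini-Hochberg adjusted p under 0.05, used for every call below). The genes that rose were mostly large risers from low control levels. Their median log2 fold change was 3.57, 107 of them rose at least 8-fold, 55 at least 32-fold, and 41 had a mean below 1 CPM in the controls (CPM, counts scaled to the size of the library). At an unadjusted p under 0.05, and with the called genes included, 788 genes were higher and 454 lower. The median change over all genes tested was -0.01. Leaving out 1 library leaves its group with 1, which is assumed to vary like the other pair. A gene with wide controls can thus pass once a control is dropped, because the wide pair is gone, and such a pass is given for completeness and not as support. It can likewise fail once a RIG-I library is dropped, because the wide controls alone then give the spread. Such a loss does not show that the change depends on the dropped library. Of the 180 genes, 125 were called again whichever of the 4 libraries was left out. The count of lower genes was 8 without control replicate 2.

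The 4 libraries held 12413347 to 13399247 counts each, so a count of 0 allows up to 0.224 to 0.242 CPM per library and 0.12 CPM over a group of 2. These floors and the counting intervals below use 3 counts and a 95% confidence level and cover counting error only. The share taken by the 13 protein-coding genes of the mitochondrial genome differed widely, at 2.82% and 5.804% of counts in control replicates 1 and 2 and 0.811% and 2.21% in RIG-I replicates 1 and 2. Its part in the results was not tested. Library sizes behind CPM were scaled by TMM. The levels are not divided by transcript length and are compared between libraries only, not between genes.

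The line was checked against cell type markers. Of 22 mammary epithelial markers, 5 passed the filter on low counts and 8 had no count in any library. Krt8, a keratin of simple epithelia, was at 278 and 222 CPM in the controls and 236 and 209 with the RIG-I agonist, whereas its partner Krt18 had no count in any of the 4 libraries and Epcam had counts in 1 of them only, at 0.158 CPM. The mesenchymal filament gene Vim stood at 3093, 2847, 2263 and 2006 CPM in the same order. The defining epithelial surface marker was thus at or near 0 while the filament genes Krt8 and Vim were both present. Of 21 leukocyte markers, 4 were tested and 4 had no count at all, and their summed level was 22.3 and 17 CPM in the controls and 21.1 and 13.7 with the RIG-I agonist. Of 10 endothelial markers, 3 were tested and none was called. The summed level of the 10 was 136 and 158 CPM in the controls and 264 and 250 with the RIG-I agonist. Of 18 mesenchymal and fibroblast markers, 11 were tested and 1, S100a4, was called lower.

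Promoters are shown first because a core of the ISRE was more frequent near the starts of the genes that rose than of all genes tested. RefSeq promoter windows of GRCm38.p6, from 250 bases before to 50 after each start, were found by symbol for 135 of the 180 genes called higher and for 8840 of all genes tested. The ISRE core was searched on both strands as GAAA, any 2 bases, GAAA. It was found for 64 of the 135 genes (47.4%), against 3.9% of all genes tested with a window and 3.44% of all 32851 windows in the table. Among genes called at least 32-fold higher the share was 67.6% of 34, between 8-fold and 32-fold 43.6% of 39, and below 8-fold 38.7% of 62. An NF-kB core, searched on both strands as GGGA, any 2 bases, TTCC, was found for 6.67% of the 135 genes, against 1.78% of those tested and 1.47% of all windows. The interferon gamma-activated core TTCNNNGAA, which reads the same on both strands, was found for 19.3%, against 8.37% of those tested and 8.3% of all windows. A match is a description of the letters and not a binding site. Matches can overlap each other, within a pattern and between patterns. Many of the genes that rose belong to families of similar genes, so these shares do not rest on independent genes.

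The 250 bases before the start are given for 6 genes that rose, 5′ to 3′ on the strand of the gene, with matches to the ISRE and NF-kB cores in capitals. They cover both interferon genes, a chemokine gene with both motifs, and antiviral genes with 1 to 3 ISRE matches.
Ifnb1 (chr4:88522795-88523044, - strand): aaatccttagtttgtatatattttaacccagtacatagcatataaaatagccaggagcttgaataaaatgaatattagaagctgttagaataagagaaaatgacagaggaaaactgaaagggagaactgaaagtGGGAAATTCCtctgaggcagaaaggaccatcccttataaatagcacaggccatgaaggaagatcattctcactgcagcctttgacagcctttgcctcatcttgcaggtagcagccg
Ifna4 (chr4:88841566-88841815, + strand): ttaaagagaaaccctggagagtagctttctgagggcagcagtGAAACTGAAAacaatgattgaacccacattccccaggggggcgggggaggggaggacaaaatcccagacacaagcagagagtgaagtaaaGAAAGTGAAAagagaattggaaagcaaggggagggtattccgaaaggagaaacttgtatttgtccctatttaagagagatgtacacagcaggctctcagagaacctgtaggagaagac
Cxcl10 (chr5:92348890-92349139, - strand): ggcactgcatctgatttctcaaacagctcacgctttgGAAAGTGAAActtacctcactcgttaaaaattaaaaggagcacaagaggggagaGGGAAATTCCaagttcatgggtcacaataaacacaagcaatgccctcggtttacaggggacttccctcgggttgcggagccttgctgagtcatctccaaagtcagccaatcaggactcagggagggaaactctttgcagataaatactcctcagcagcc
Isg15 (chr4:156200819-156201068, - strand): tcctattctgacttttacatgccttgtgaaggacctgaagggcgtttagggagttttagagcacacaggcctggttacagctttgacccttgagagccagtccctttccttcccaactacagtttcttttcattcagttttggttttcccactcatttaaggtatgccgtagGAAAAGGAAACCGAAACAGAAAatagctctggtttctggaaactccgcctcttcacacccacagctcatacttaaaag
Ifit3 (chr19:34583279-34583528, + strand): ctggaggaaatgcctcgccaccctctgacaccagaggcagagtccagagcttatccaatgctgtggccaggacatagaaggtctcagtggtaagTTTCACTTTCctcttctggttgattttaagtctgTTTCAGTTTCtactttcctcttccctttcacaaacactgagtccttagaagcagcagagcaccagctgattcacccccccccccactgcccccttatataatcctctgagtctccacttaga
Tgtp2 (chr11:49064213-49064462, - strand): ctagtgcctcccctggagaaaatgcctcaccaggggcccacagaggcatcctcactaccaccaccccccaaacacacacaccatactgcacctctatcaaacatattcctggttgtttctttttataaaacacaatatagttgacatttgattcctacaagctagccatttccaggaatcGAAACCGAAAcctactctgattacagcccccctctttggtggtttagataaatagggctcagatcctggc
The NF-kB match of Ifnb1, GGGAAATTCC, lies 116 to 107 bases before the start, and the same letters occur in Cxcl10 159 to 150 bases before the start. Isg15 holds 3 ISRE matches that overlap in 1 block from 78 to 57 bases before the start. Ifit3 holds its matches on the other strand, at 156 to 147 and 122 to 113 bases.

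A second set shows a match shared by neighbouring genes of the Ifi200 family, which encode nuclear proteins that bind DNA. In Ifi203, Ifi206, Ifi207, Ifi208 and Mndal the letters GAAATCGAAA lie between 58 and 26 bases before the start. They occur in the windows of 11 of the 8840 tested genes, of which 7 were called higher, against 135 of all 8840. The letters were picked as the match common to these 5 genes, all of them called higher, so the count is no test. The 40 bases around them follow, with the match in capitals.
Ifi203 (chr1:173942503-173942542, - strand): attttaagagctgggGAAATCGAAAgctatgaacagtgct
Ifi206 (chr1:173491334-173491373, - strand): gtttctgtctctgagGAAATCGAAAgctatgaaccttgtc
Ifi207 (chr1:173741826-173741865, - strand): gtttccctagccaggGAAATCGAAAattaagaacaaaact
Ifi208 (chr1:173673592-173673631, + strand): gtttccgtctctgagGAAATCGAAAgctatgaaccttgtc
Mndal (chr1:173880199-173880238, - strand): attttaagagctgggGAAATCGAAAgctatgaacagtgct
The windows of Ifi203 and Mndal are identical over these 40 bases. These genes are near-identical copies in part, so their shared reads may have been divided wrongly between them.

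The 2 interferon genes tested were among the transcripts with the largest change. Ifnb1, the gene of interferon beta, had 1 count in control replicate 1 and 0 in control replicate 2, against 13.4 and 13.9 CPM with the RIG-I agonist. Its counts were 342 times higher, with an exact counting interval of 61.1 to 13560 (adjusted p = 0.00761). Ifna4 had no control counts and reached 4.27 and 5.50 CPM, which is at least 40.9-fold higher (adjusted p = 0.03). These were the only 2 of 20 listed type I and III interferon genes that passed the filter on low counts, and 11 had no count in any library. Both passed it through the RIG-I group alone, which favours a large change. Without the filter 9 were tested, 2 rose and none fell (median 3.135). Members of the Ifna family are similar enough to share reads.

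Of 18 genes of RNA sensing and signalling, 8 rose and none fell, with a median log2 change of 1.05. They were RNA sensors, the kinase PKR, the ligase Trim25 and the transcription factor Irf7, while Mavs, Irf3, Tbk1 and Ikbke did not pass the test. Zbp1, which senses nucleic acids in the Z form, was at 0.234 and 0.411 CPM in the controls and 101 and 118 with the RIG-I agonist (log2 8.38, SE 0.27, adjusted p = 0.00277). Both RIG-I libraries lay more than 100 CPM above either control. Irf7, the transcription factor that amplifies interferon production, went from 14.2 and 8.06 to 489 and 473 CPM (log2 5.43). Of the 3 RIG-I-like receptor genes, Dhx58, which encodes LGP2, went from 12.6 and 7.23 to 114 and 147 CPM (log2 3.71), and Ifih1, which encodes MDA5, from 22.7 and 13.9 to 176 and 203 CPM (log2 3.37, SE 0.27, adjusted p = 0.00926).

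Ddx58, the gene of RIG-I itself, showed how the spread between replicates bears on a call. Its levels were 65.0 and 35.2 CPM in the controls and 238 and 245 CPM with the RIG-I agonist, so the groups did not overlap and the controls were 1.85-fold apart. It passed at adjusted p = 0.0447 (log2 2.27, SE 0.31) and missed the threshold once RIG-I replicate 1 (adjusted p = 0.13) or 2 (0.151) was left out. Tlr3, an endosomal RNA sensor, rose from 4.20 and 4.11 to 35.6 and 32.3 CPM, Eif2ak2, the RNA-activated kinase PKR, from 63.4 and 43.5 to 173 and 233 CPM, and Trim25, a ubiquitin ligase of the RIG-I pathway, from 106 and 89.7 to 214 and 244 CPM. Trim25 was not called without control replicate 2 (adjusted p = 0.102) or RIG-I replicate 2 (0.0612). Mavs was at 55.6 and 53.4 CPM in the controls and 49.96 and 48.7 with the RIG-I agonist (log2 -0.14, adjusted p = 0.798), and Irf3 was at 49.4, 59.8, 45.5 and 57.8 CPM, with overlapping groups. The kinase gene Tbk1 had a log2 change of 0.42 (adjusted p = 0.38). Ikbke, which encodes IKK-epsilon, went from 3.66 and 1.23 to 22.4 and 6.82 CPM, and its log2 change of 2.57 (SE 0.77) did not pass (adjusted p = 0.333), with replicates about 3-fold apart in both groups.

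Of 21 genes of interferon receptors, JAK, STAT, IRF and feedback, 5 rose and none fell (median 0.56). The count was 3 without RIG-I replicate 2. Usp18, which cuts ISG15 from proteins and dampens the receptor, went from 28.4 and 14.1 to 609 and 749 CPM (log2 4.997, SE 0.398). Stat2, a subunit of the factor that binds the ISRE, went from 39.1 and 21.2 to 260 and 271 CPM (log2 3.14, adjusted p = 0.0167). Stat2 missed the threshold without RIG-I replicate 2 (adjusted p = 0.0613). The transcription factor gene Irf1 rose from 21.9 and 19.5 to 101 and 118 CPM, with a log2 change of 2.40 and an SE of 0.15 that reflects close replicates. Irf5 rose by 3.76, but with RIG-I replicate 2 left out it did not pass (adjusted p = 0.0696). Irf9, the DNA-binding subunit of the same factor, was at 41.7 and 27.1 CPM and at 78.1 and 74.5 CPM, which did not pass (log2 1.15, adjusted p = 0.133). Without control replicate 1 its adjusted p was 0.0213.

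**Figure D1:**
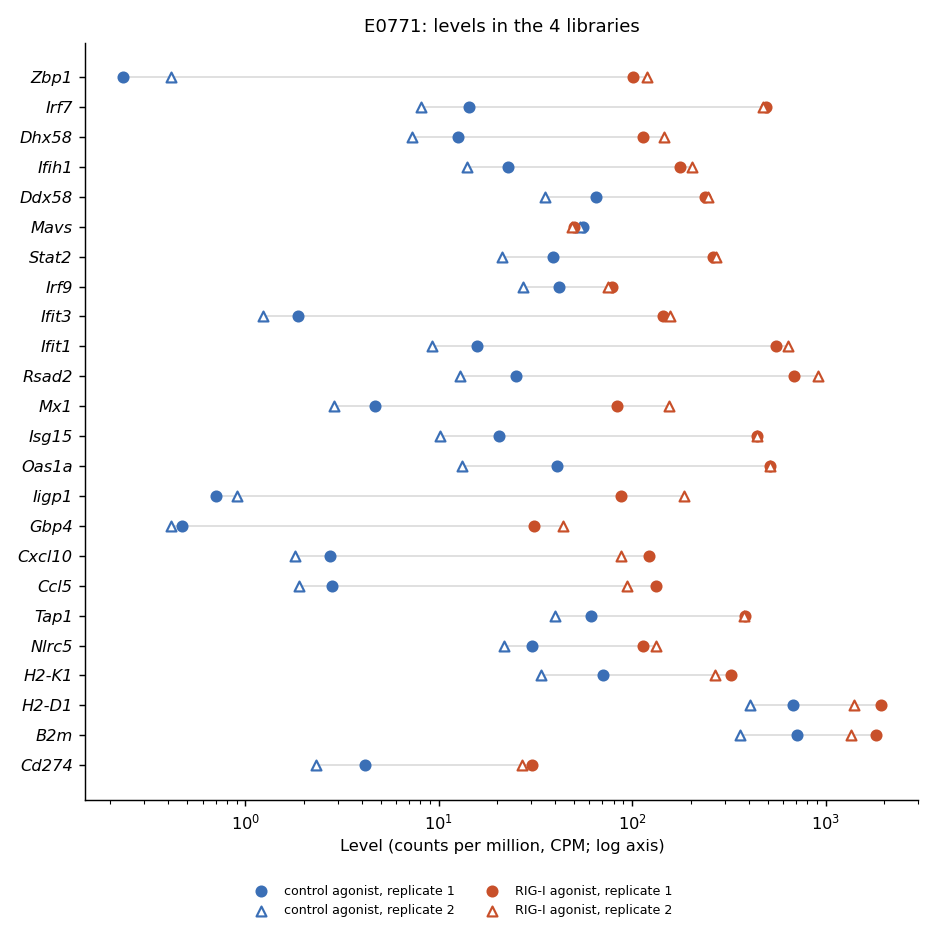
Levels of 24 genes of RNA sensing, interferon signalling, antiviral defence and antigen presentation in the 4 E0771 libraries, in CPM on a log axis. Circles are replicate 1 and triangles replicate 2, blue is the control agonist and red the RIG-I agonist. Zbp1 stands near 0.3 CPM in the controls and above 100 with the RIG-I agonist, Mavs hardly differs, and in most genes the control of replicate 2 lies below that of replicate 1.

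The antiviral interferon-stimulated genes were the group with the most calls. Of 61 tested, 54 rose and none fell (median 3.49), and the count was 43 without RIG-I replicate 2 and 44 without RIG-I replicate 1. Without the filter on low counts 64 were tested, 49 rose and none fell (median 3.609). The genes of the IFIT family, which encode proteins that bind foreign RNA, were all high. Ifit3 went from 1.87 and 1.23 to 145 and 157 CPM (log2 6.59, SE 0.23, adjusted p = 0.00277). Ifit1 went from 15.7 and 9.21 to 552 and 641 CPM (log2 5.58). Ifit1bl1 held 3 control counts together and reached 6.40 and 10.6 CPM, 71.7 times the control count (interval 24.2 to 350). In each of these 3 genes the RIG-I libraries stood clear of the controls.

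Genes of the PHF11 group, nuclear proteins with a zinc finger, also led the list. Phf11d went from 1.87 and 0.740 to 96.8 and 112 CPM (log2 6.30). Phf11b rose by 7.06, and its RIG-I replicates, at 21.4 and 45.1 CPM, were about 2-fold apart. Phf11a had 3 control counts and reached 6.32 and 16.1 CPM, 94.8 times the control count (interval 32.1 to 462). Rsad2, which encodes the antiviral radical enzyme viperin, went from 24.99 and 12.9 to 683 and 912 CPM (log2 5.39). Isg15, a ubiquitin-like protein that is joined to others, went from 20.4 and 10.2 to 441 and 440 CPM (log2 4.84, SE 0.37). Mx1, a GTPase that traps viral particles, rose from 4.67 and 2.88 to 83.7 and 155 CPM (log2 4.97).

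The 2′,5′-oligoadenylate synthetases, which make the activator of RNase L, had some of the widest differences between the controls. Oas1a was at 40.7 and 13.2 CPM in the controls and at 513 and 515 with the RIG-I agonist. Its RIG-I replicates were nearly equal and its controls 3.08-fold apart, and it passed at adjusted p = 0.039 (log2 4.25, SE 0.56). Without RIG-I replicate 1 or 2 its log2 change was 4.254 and 4.245, and it was not called. In those fits the wide control pair alone gives the spread. Oas1g, Oas2, Oasl2, Mx2 and Ifi44 were likewise called in the full comparison, with log2 changes of 5.93, 5.50, 5.01, 5.71 and 5.53, and were not called without either RIG-I library (adjusted p from 0.106 to 0.379). Oas1g is an example, at 4.44 and 0.822 CPM in the controls and 168 and 157 with the RIG-I agonist. Smaller changes passed where replicates were close: Samhd1, which depletes nucleotides, rose from 95.5 and 86.2 to 229 and 276 CPM (log2 1.48) and Pml, the nuclear body protein, from 42.0 and 38.6 to 105 and 99.2 CPM (log2 1.34, SE 0.13).

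Only 2 tested antiviral genes had a negative change. Ifi27, a mitochondrial interferon-induced gene, was at 62.7 and 39.2 CPM in the controls and 25.6 and 17.5 with the RIG-I agonist (log2 -1.24, adjusted p = 0.225). Both RIG-I libraries lay below both controls, and the gene was called lower without control replicate 2 (adjusted p = 0.0426). The other was Ifitm2, at -0.15. Adar, the RNA-editing enzyme, was at 108 and 55.9 and at 261 and 191 CPM, and was not called (log2 1.46, adjusted p = 0.218). Without control replicate 1 its adjusted p was 0.0128.

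Of 18 interferon-inducible GTPases, which attack the membranes of vacuoles that hold pathogens, 17 rose and none fell, with a median of 5.60. A gene can pass the filter on low counts through the RIG-I group alone, as Tgtp2 did. Without the filter 19 were tested, 15 rose and none fell (median 5.589). Tgtp2 had no control counts and reached 15.4 and 21.2 CPM, at least 153.8-fold higher (adjusted p = 0.00987). Iigp1 went from 0.701 and 0.904 to 87.2 and 185 CPM (log2 7.39) and Tgtp1 from 0.545 and 0.247 to 32.8 and 46.5 CPM (log2 6.601). Among the guanylate-binding proteins, Gbp3 had the smallest standard error, with 7.63 and 6.17 CPM in the controls and 327 and 348 with the RIG-I agonist (log2 5.61, SE 0.18). Gbp2 went from 3.35 and 2.71 to 236 and 189 CPM (log2 6.13) and Gbp4 from 0.467 and 0.411 to 31.1 and 43.7 CPM (log2 6.38). Gbp10 rose by 6.13, and its RIG-I replicates, at 8.54 and 20.8 CPM, were over 2-fold apart. The member that was not called, Gbp8, had 1 control count and reached 1.03 and 2.56 CPM (adjusted p = 0.151). Reads can be shared between Tgtp1 and Tgtp2 and among the Gbp genes.

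Of 12 genes of cytosolic DNA sensing, 8 rose and none fell (median 3.05), and 6 of the 8 belong to the Ifi200 family. Without the filter on low counts 13 were tested, 6 rose and none fell (median 2.315). Ifi205 went from 0.389 and 0.0822 to 37.3 and 36.3 CPM (log2 7.21). Ifi207 had 2 control counts and reached 16.9 and 12.3 CPM, 182 times the control count (interval 49.95 to 1505). Ifi203 and Ifi204 rose by 4.80 and 4.22. Both had controls at least 2-fold apart, and both calls were lost when RIG-I replicate 1 (adjusted p = 0.111 and 0.152) or 2 (0.139 and 0.133) was left out. Trex1, the exonuclease that removes cytosolic DNA, rose from 12.5 and 11.5 to 57.5 and 63.0 CPM (log2 2.32, SE 0.15). The DNA sensor Cgas (log2 0.81, adjusted p = 0.271), the inflammasome sensor Aim2 (0.39) and Tmem173, which encodes STING (0.23), did not pass.

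**Figure D2:**
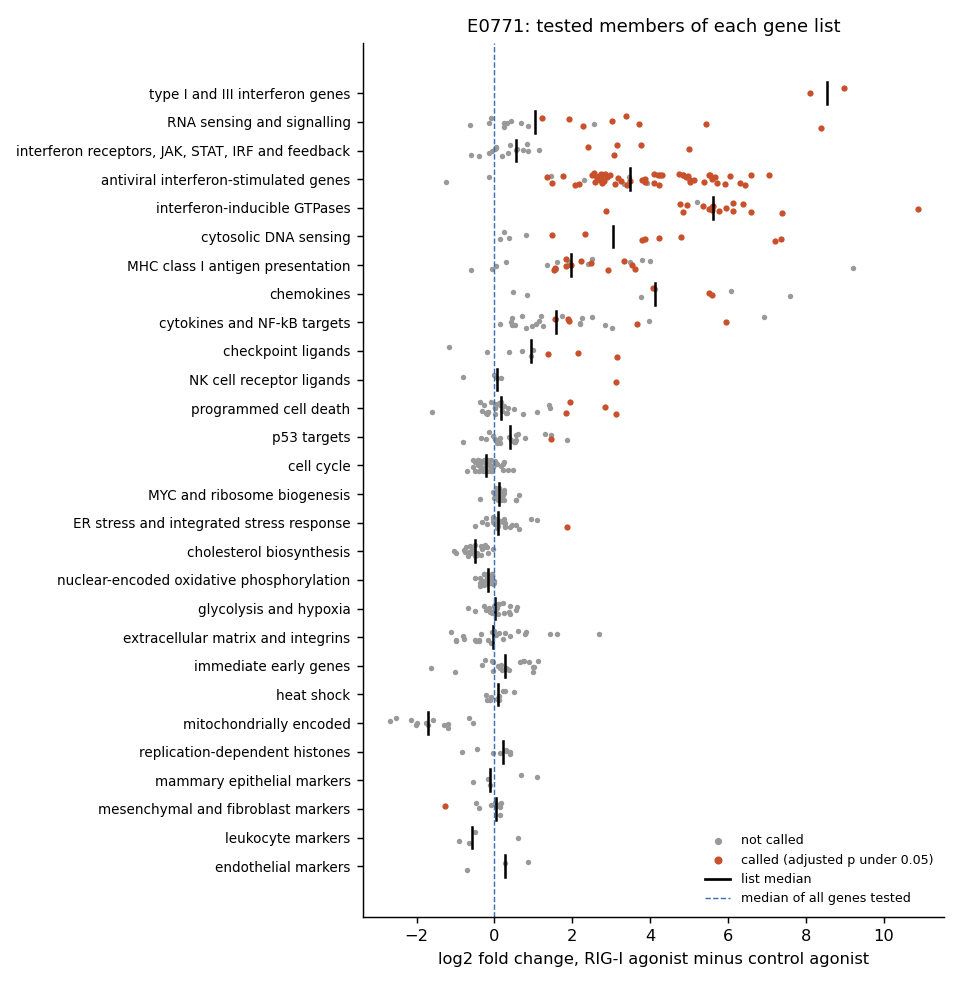
Log2 fold change of every tested member of 28 gene lists in E0771, RIG-I agonist minus control agonist. Each point is a gene, red where it was called, the black bars are list medians and the dashed line is the median of all genes tested (-0.01). The antiviral list (54 of 61 called) and the GTPases (17 of 18) lie almost wholly to the right, while the 13 mitochondrially encoded and 24 cholesterol genes lie to the left with none called.

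In MHC class I antigen presentation, several genes of peptide processing and loading passed the test, and the classical chains H2-K1 and H2-D1 did not. Of 26 genes tested, 11 rose and none fell (median 1.96), and 17 were called without control replicate 1. Psmb10, an immunoproteasome subunit, went from 17.1 and 13.4 to 203 and 166 CPM (log2 3.60, SE 0.2). Tapbp, the tapasin gene, went from 101 and 53.8 to 823 and 714 CPM (log2 3.31), and Tap1, the peptide transporter, from 60.8 and 39.7 to 383 and 380 CPM (log2 2.92). Nlrc5, the transactivator of class I genes, rose from 30.4 and 21.7 to 113 and 132 CPM (log2 2.23). Psmb9 rose by 3.54, a call that ended with RIG-I replicate 1 (adjusted p = 0.112) or 2 (0.117) left out. Its neighbour in function Psmb8 went from 12.6 and 3.37 to 97.9 and 81.6 CPM, missed the threshold (log2 3.48, SE 0.58, adjusted p = 0.0811) and had an adjusted p of 0.000247 and 0.00168 without control replicate 1 and 2. In those fits the wide control pair is gone and the spread comes from the RIG-I pair alone.

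The classical class I transcripts were higher in both RIG-I libraries but their controls were far apart. H2-K1 was at 70.7 and 33.6 CPM and at 325 and 268 CPM (log2 2.51, SE 0.38, adjusted p = 0.0614). With control replicate 1 or 2 left out its adjusted p was 0.00094 and 0.00699, where only the closer RIG-I pair gives the spread. H2-D1 was at 676 and 407 and at 1920 and 1392 CPM (log2 1.61, adjusted p = 0.127, and 0.0254 without control replicate 1). B2m, the shared light chain, was at 706 and 359 and at 1816 and 1344 CPM (log2 1.57, adjusted p = 0.211, and 0.0183 without control replicate 1). In all 3 genes the lower value of each group was that of replicate 2. With the replicate number as a block, edgeR called H2-K1, H2-D1 and B2m higher (adjusted p = 0.0493, 7.07e-09 and 0.000168). The labels do not say what equal numbers share. Of the 15 members not called in the main fit, 11 were at least 2-fold higher with no overlap between the groups. Over all genes tested the direction alone held in 20.4%. H2 genes share reads, and values of single members are uncertain.

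Of 26 listed chemokine genes, 9 passed the filter on low counts, which a gene can pass through the RIG-I group alone. Of these 9, 3 rose and none fell (median 4.13, or 4.07 with the members that had no control counts at their bound). Without the filter 22 were tested, 6 rose, none fell and the median was 2.285. Ccl5, which attracts T cells, went from 2.80 and 1.89 to 133 and 93.8 CPM (log2 5.58, SE 0.3). Cxcl10, a ligand of CXCR3, went from 2.73 and 1.81 to 122 and 87.9 CPM (log2 5.52). The other CXCR3 ligands were near the floor in the controls: Cxcl9 reached 8.70 and 3.37 CPM (adjusted p = 0.0845) and Cxcl11 reached 1.90 and 1.83 CPM from no control counts, a rise of at least 15.5-fold (adjusted p = 0.0716). Cxcl9 was called without control replicate 2 (0.0332) or RIG-I replicate 2 (0.0242). Ccl2, a monocyte attractant, was at 28.5 and 6.58 and at 264 and 214 CPM (log2 3.77, SE 0.675, adjusted p = 0.0983). Its adjusted p was 0.000195 and 0.00138 without either control, fits in which the RIG-I pair alone gives the spread. Ccl7 rose by 4.07, and either RIG-I library left out ended its call (adjusted p = 0.149 and 0.144).

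Of 42 listed cytokine and NF-kB target genes, 27 passed the same filter, and all 27 had a positive change. Of them 5 rose and none fell (median 1.57). Without the filter 41 were tested, 9 rose and none fell (median 1.555). Tnfsf10, the death ligand TRAIL, went from 0.389 and 0.329 to 16.6 and 29.2 CPM (log2 5.96). Relb, an NF-kB subunit, went from 20.2 and 19.6 to 80.6 and 69.8 CPM (log2 1.92, SE 0.14) and Il15ra, which presents interleukin 15, from 10.3 and 12.1 to 37.6 and 45.6 CPM (log2 1.89). The inhibitor gene Tnip1 rose by 1.56. Il18 rose by 3.66 from under 0.5 CPM and was not called in any of the 4 comparisons that left out a library (adjusted p from 0.0538 to 0.0986).

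Several classical NF-kB targets had large changes that did not pass beside wide replicates. With the replicate number as a block, edgeR called 23 of the 27 higher, among them Nfkbia, Tnf, Icam1, Csf1 and Il6. The labels do not say what equal numbers share. Nfkbia, the inhibitor that NF-kB itself induces, stood at 28.2 and 15.8 and at 123 and 80.5 CPM (log2 2.21, adjusted p = 0.0717). It was called without control replicate 1 (0.0079) or 2 (0.04). Tnf was at 2.02 and 0.822 and at 15.2 and 8.21 CPM (log2 3.02, adjusted p = 0.102). The call appeared without control replicate 1 (0.0279) or RIG-I replicate 2 (0.0451). Icam1, an adhesion molecule, was at 3.04 and 0.822 and at 41.7 and 19.9 CPM (log2 3.98, adjusted p = 0.0822) and passed without control replicate 1 (0.0294). Csf1, the macrophage growth factor, was at 146 and 63.4 and at 656 and 308 CPM (log2 2.20, adjusted p = 0.224). With no control counts, Il6 reached 1.26 and 1.10 CPM and was at least 9.83-fold higher (adjusted p = 0.112). Of the 22 members not called in the main fit, 19 had both RIG-I libraries above both controls, 12 of them at least 2-fold. Over all 11728 genes tested the first held for 20.4%, and 310 genes that were not called were at least 2-fold higher without overlap.

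Of 9 checkpoint ligand genes tested, 3 rose. Cd274, which encodes PD-L1, went from 4.13 and 2.30 to 30.3 and 26.8 CPM (log2 3.14, SE 0.32, adjusted p = 0.0167). Lgals9, which encodes galectin-9, went from 126 and 105 to 446 and 572 CPM (log2 2.14). Cd47, the "do not eat me" signal, rose from 55.4 and 46.9 to 123 and 141 CPM (log2 1.36) and was not called without control replicate 2 (adjusted p = 0.0652). Of 5 ligands of NK cell receptors, Clec2d rose by 3.11 and was not called without either control (adjusted p = 0.0597 and 0.084), while Ulbp1, a ligand of NKG2D, stood at 53.5 and 60.7 and at 34.3 and 30.9 CPM (log2 -0.81, adjusted p = 0.097).

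Of 33 genes of programmed cell death, 4 rose and none fell (median 0.16). Fas, a death receptor, went from 1.48 and 1.97 to 11.5 and 13.1 CPM (log2 2.83, SE 0.29). Daxx, a nuclear FAS-binding protein, went from 59.95 and 59.4 to 201 and 225 CPM (log2 1.83, SE 0.13). The inflammatory caspase gene Casp4 rose by 3.11 and its substrate gene Gsdmd by 1.93. Casp4 lost its call with either RIG-I library left out (adjusted p = 0.068 and 0.0563), as did Gsdmd without control replicate 2 or RIG-I replicate 1 (0.0541 and 0.0726). Mlkl, the effector of necroptosis, was at 114 and 77.4 and at 226 and 180 CPM (log2 1.08, adjusted p = 0.171, and 0.0463 without control replicate 1), and Casp8 at 33.1 and 37.2 and at 47.9 and 42.1 CPM (adjusted p = 0.496).

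Among 22 p53 targets, 1 rose: Cdkn1a, the inhibitor of cyclin-dependent kinases, went from 57.6 and 52.7 to 145 and 155 CPM (log2 1.44, SE 0.13, adjusted p = 0.0119). The count was 2 without control replicate 1. Among 29 genes of ER stress and the integrated stress response, 1 rose: Atf3, a stress-induced repressor, went from 11.8 and 7.73 to 36.6 and 34.6 CPM (log2 1.87). Ddit3, which encodes CHOP, was at 15.6 and 20.4 and at 34.4 and 42.1 CPM (log2 1.09, adjusted p = 0.112). Myc was at 448 and 460 and at 692 and 715 CPM (log2 0.63, adjusted p = 0.164), with groups that did not overlap, and none of the 27 MYC and ribosome biogenesis genes was called by edgeR, with 2 higher at an unadjusted p under 0.05 and 1 called by DESeq2 and none by limma voom. No glycolysis, extracellular matrix, immediate early, heat shock or histone gene was called by edgeR either, and at an unadjusted p under 0.05 these lists had 7 higher and 4 lower genes. DESeq2 called 2 matrix and 3 immediate early genes higher, and limma voom none. Without RIG-I replicate 2, 2 immediate early genes were called, and 1 matrix gene was called without control replicate 1 or 2.

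Outside the lists 58 genes were called higher. The 10 with the largest change (mean log2 CPM 1 or more) were Gm12250, Gm7592, Ifi206, Batf2, Gm7609, Gm4070, Acod1, Ifi208 and the identifiers ENSMUSG00000116420.1 and ENSMUSG00000115886.1, for which no name was found. Gm12250, also known as Irgb10, is another immunity-related GTPase. It had 3 control counts and reached 36.0 and 81.1 CPM, 495 times the control count (interval 169 to 2404). Its call was lost without control replicate 1 (adjusted p = 0.0542) or 2 (0.0652). Acod1, the enzyme that makes itaconate, went from 0.156 and 0.247 to 15.97 and 11.2 CPM (log2 6.02, SE 0.43), and Batf2, a transcription factor of myeloid cells, had 3 control counts and rose to 76.7 times that (interval 25.9 to 375). Gm7592 had no control counts and was at least 35.2-fold higher, but was not called without RIG-I replicate 2 (adjusted p = 0.0533). ENSMUSG00000115886.1 lost its call in the same comparison (0.0805). Of the 180 genes, 168 were protein-coding and 9 were pseudogenes, whose reads can stem from related genes.

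Many genes that rose lay side by side in the genome (GRCm38). With the starts of called genes at most 250 kb apart, 64 of the 177 that could be placed fell into 15 runs of at least 3. Most runs are families of similar genes, whose reads can be shared. The Ifit run on chromosome 19 (34550694 to 34650009) held 6 called genes of 6 tested, with log2 changes from 3.10 to 6.59. The largest run, on chromosome 1 (173468485 to 174031810), held 9 called Ifi200 genes of 11 tested, from Ifi206 to Ifi205. The Gbp genes lay in runs on chromosome 3 (142493978 to 142638008, 5 of 5) and chromosome 5 (105077630 to 105293698, 4 of 4), and the Oas genes in another on chromosome 5 (120730333 to 120907521, 5 of 6).

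A few runs join genes of different names. On chromosome 11 a run from 48861968 to 49096974 held Irgm1, Tgtp1, Tgtp2 and Ifi47 among 5 called of 9 tested. A second run on chromosome 11 (58187739 to 58222782) was formed by Gm12250, Igtp and Irgm2, and the models of Igtp and Irgm2 overlap. Parp14, Dtx3l and Parp9, which encode ADP-ribosylation enzymes and a partner ligase, lay on chromosome 16 (35832874 to 35972605, 3 of 3). Parp14 went from 20.1 and 11.9 to 269 and 332 CPM (log2 4.23). The surface protein genes Ly6e, Ly6a and Ly6c1 lay on chromosome 15 (74955051 to 75048830, 3 of 3), and Ly6e, which blocks coronavirus entry, went from 364 and 236 to 1656 and 1493 CPM (log2 2.39). No gene within any of the 15 runs was called lower, but only 3 of all 11728 genes tested (0.0256%) were, so this says little about the runs.

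Only 3 genes fell. S100a4 (chromosome 3, 90603771 to 90606045), a calcium-binding protein of motile cells, was at 108 and 87.3 CPM in the controls and 38.7 and 42.4 with the RIG-I agonist (log2 -1.27, SE 0.16, adjusted p = 0.0343). Stmn1 (chromosome 4, 134468320 to 134473843), which encodes the microtubule destabilizer stathmin, was at 120 and 111 and at 63.3 and 56.5 CPM (log2 -0.95, SE 0.13, adjusted p = 0.0491). Gm45837 (chromosome 7, 101410886 to 101512819) was at 20.2 and 27.6 and at 1.42 and 3.15 CPM (log2 -3.37, adjusted p = 0.0326). In each of them both RIG-I libraries lay below both controls, which held for 20% of all genes tested. S100a4 was not called without control replicate 1 (adjusted p = 0.0563), RIG-I replicate 1 (0.0821) or RIG-I replicate 2 (0.0504), and Stmn1 was not called without any 1 of the 4 libraries (0.0962 to 0.158).

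Cell cycle genes were mostly lower without passing the test. None of the 44 was called by edgeR, and 1 was higher and 8 were lower at an unadjusted p under 0.05. DESeq2 called 2 lower and limma voom none. The median was -0.21, but -0.07 without control replicate 1, -0.06 without RIG-I replicate 2 and -0.35 without RIG-I replicate 1. In all 4 libraries 35 had a negative change, and in 16 both RIG-I libraries lay below both controls, against 20% of all genes tested. Mki67, a proliferation marker, was at 167 and 145 and at 105 and 87.0 CPM (log2 -0.70, SE 0.16, adjusted p = 0.191). Kif11, a spindle motor, was at 143 and 143 and at 97.9 and 95.9 CPM (log2 -0.56, adjusted p = 0.152). Bub1b, a checkpoint kinase, was at 120 and 126 and at 87.9 and 86.0 CPM (log2 -0.50, adjusted p = 0.213). In Kif11 and Bub1b the replicates within a group lay closer together than the groups did. Of the nuclear-encoded oxidative phosphorylation genes, all 32 had a negative change (median -0.17) and 5 were lower at an unadjusted p under 0.05. The main edgeR fit, DESeq2 and limma voom called none. In 20 both RIG-I libraries lay below both controls, against 20% of all genes tested. The edgeR fit with 1 spread shared by 14 libraries called 10 of the 32 and 12 of the 44 cell cycle genes lower. With the replicate number as a block these were 11 and 20. Each of these fits also called 2 cell cycle genes higher.

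The spread between E0771 replicates was wide. The biological coefficient of variation, the part of the replicate spread beyond counting error, was 0.202 in E0771, against 0.03045 in MC38 and 0.102 in CT26. Among genes whose mean log2 CPM was 3 or more, 237 of 9396 genes (2.52%) differed at least 2-fold between the control replicates and 236 (2.51%) between the RIG-I replicates. In MC38 this held for 7 and 12 of 9475 genes. The median absolute difference between replicates at this level was 0.20 and 0.22 on the log2 scale in E0771 and 0.06 in both groups of MC38. Of the 90 genes at least 2-fold higher in control replicate 2, 68 (75.6%) were also at least 2-fold higher in RIG-I replicate 2, and these made up 51.5% of the 132 such genes there. Of the 147 at least 2-fold lower in control replicate 2, 72 (49%) were at least 2-fold lower in RIG-I replicate 2, 69.2% of the 104 there. A single gene moved at least 2-fold in opposite directions.

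The genes with the widest spread make this plain. Gm2223 had no counts in replicate 1 of either agonist and stood at 27.9 and 19.5 CPM in replicate 2. Padi3, which converts arginine to citrulline in proteins, was at 5.37 and 3.48 CPM in replicate 1 of the controls and the RIG-I agonist and at 58.8 and 42.3 in replicate 2. Wfdc1, a secreted protease inhibitor, was at 18.2 and 4.74 CPM in replicate 1 and at 142 and 70.4 in replicate 2. Igf2bp1, an mRNA-binding protein, ran the other way, with 22.97 and 22.4 CPM in replicate 1 and 3.12 and 2.71 in replicate 2. Nbl1, a secreted BMP antagonist, stood at 8.10 and 25.6 CPM in replicate 1 and at 0.658 and 3.15 in replicate 2. In these 5 genes the replicate number separated the libraries more than the agonist did. None was called.

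**Figure D3:**
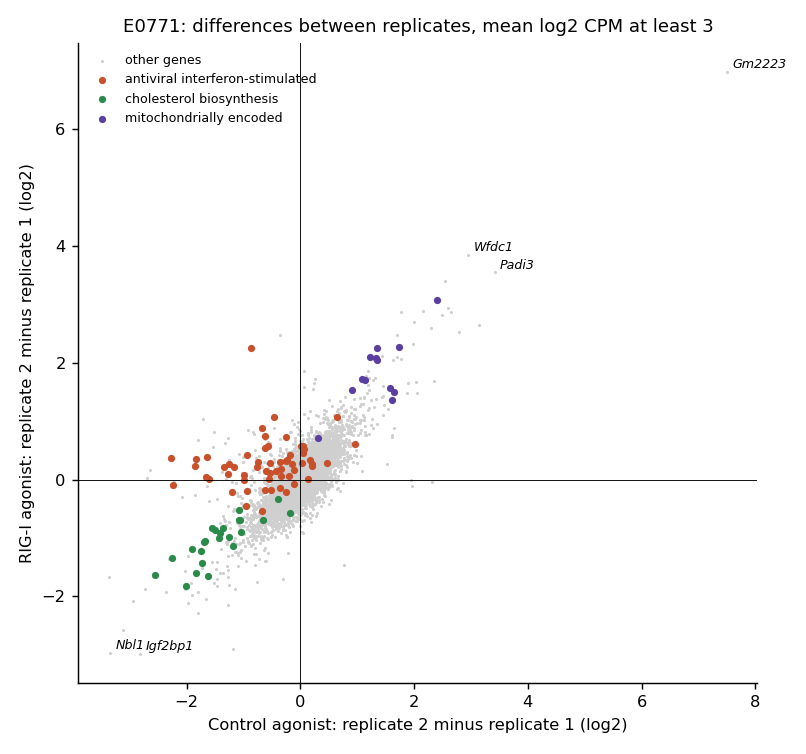
Difference between replicate 2 and replicate 1 of the control agonist (horizontal) against that of the RIG-I agonist (vertical), log2 scale, for 9396 genes whose mean log2 CPM was 3 or more. Cholesterol genes lie at the lower left and mitochondrially encoded genes at the upper right, that is, on the same side in both agonist groups, whereas most antiviral genes lie left of the vertical line and near or above the horizontal one.

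The labels do not say what replicates with the same number share. Groups of genes with a common function followed the number. The 24 cholesterol biosynthesis genes, which the transcription factor SREBP2 controls as a block, were all lower in replicate 2 than in replicate 1 in both agonist groups, by a median of 2.76-fold in the controls and 2.00-fold with the RIG-I agonist. Hmgcs1, which makes the precursor of mevalonate, was at 321 and 67.4 CPM in the controls and 180 and 71.1 with the RIG-I agonist. Idi1, an isoprenoid isomerase, was at 229 and 38.9 and at 135 and 43.2 CPM. In no cholesterol gene did the 4 libraries separate by agonist, and edgeR called none, also at an unadjusted p under 0.05, as did DESeq2 and limma voom. With the replicate number as a block 12 of the 24 were called lower. All 24 had a negative log2 change (median -0.51), but this median was 0.39 without control replicate 1, -0.10 without RIG-I replicate 2, -1.09 without control replicate 2 and -1.13 without RIG-I replicate 1. Hmgcs1, Idi1, Msmo1 and Mvd had log2 changes of -0.63, -0.59, -0.33 and -1.04 in all 4 libraries and of 0.89, 1.19, 0.92 and 0.08 without control replicate 1.

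The 13 mitochondrially encoded genes, which are transcribed as long precursors from the mitochondrial genome, showed the opposite order of replicates. All 13 were higher in replicate 2 in both groups, by a median of 2.53-fold in the controls and 3.31-fold with the RIG-I agonist. They were also lower with the RIG-I agonist at each replicate number, and all 13 had a negative log2 change, with a median of -1.71. mt-Atp6, an ATP synthase subunit, was at 4160 and 12470 CPM in the controls and 1061 and 3136 with the RIG-I agonist (log2 -1.99, SE 0.73, adjusted p = 0.445). mt-Co1, an oxidase subunit, was at 10270 and 12740 and at 2940 and 4789 CPM (log2 -1.57, SE 0.33, adjusted p = 0.152). mt-Nd4l had the largest change, at 230 and 583 and at 21.7 and 104 CPM (log2 -2.69, adjusted p = 0.355). In 8 of the 13 genes both RIG-I libraries lay below both controls, against 20% of all genes tested. None was called by edgeR, and 7 were lower at an unadjusted p under 0.05. DESeq2 called 1 lower, limma voom none, and the edgeR fit with 1 spread shared by 14 libraries 3. With the replicate number as a block 10 were called lower, but the labels do not say what equal numbers share. The median was -0.75 without control replicate 2, -1.24 without RIG-I replicate 1, -2.15 without control replicate 1 and -2.82 without RIG-I replicate 2. Fewer cells of a type and less RNA per cell cannot be told apart in bulk samples, and the same holds for less mitochondrial RNA and more RNA of other genes, since CPM are shares.

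**Figure D4:**
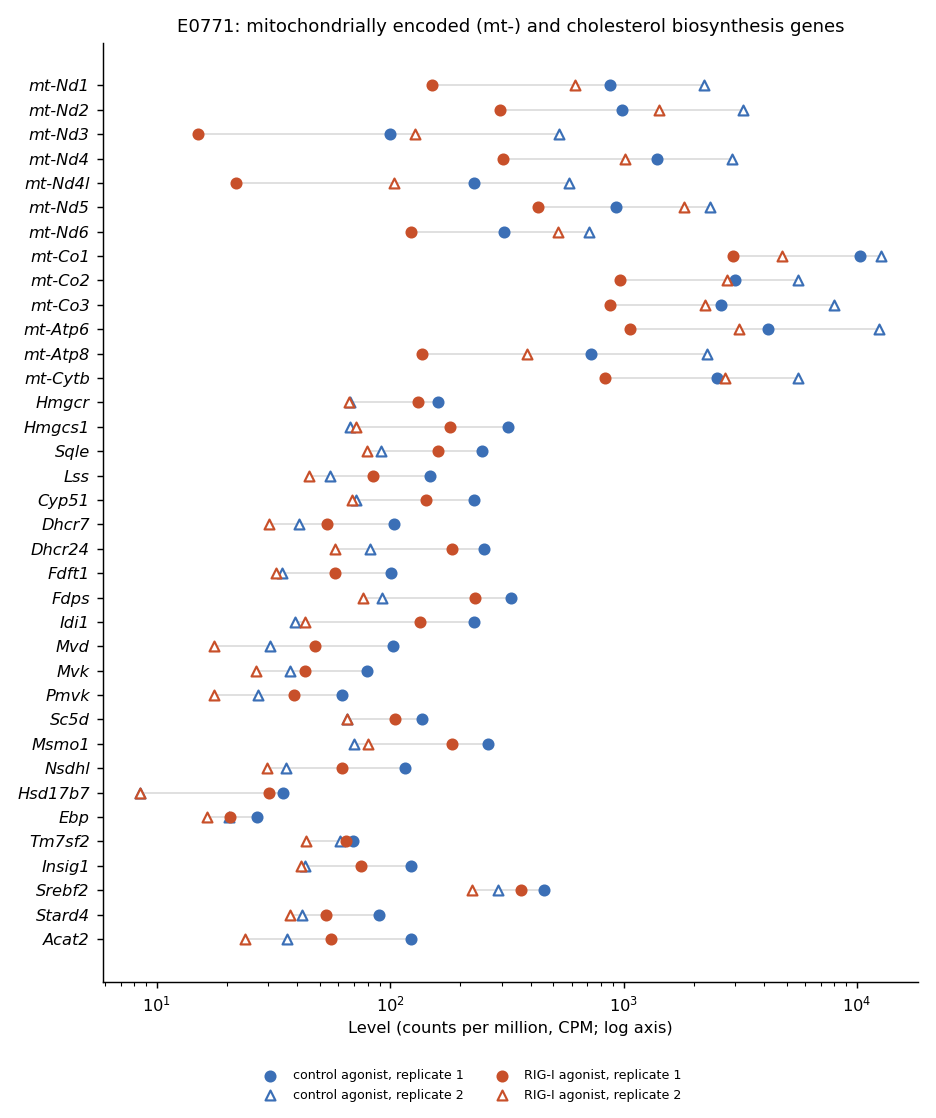
Levels of 13 mitochondrially encoded and 23 of the 24 cholesterol biosynthesis genes in the 4 E0771 libraries, in CPM on a log axis, with circles for replicate 1, triangles for replicate 2, blue for the control agonist and red for the RIG-I agonist. Triangles lie to the right of circles of the same colour in all 13 mitochondrial genes and to the left in all 23 cholesterol genes shown.

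Interferon-stimulated genes did not keep the same order of replicates in both groups. Of the 61 antiviral genes, 47 were lower in control replicate 2 than in control replicate 1 (median difference -0.52), and 50 were higher in RIG-I replicate 2 than in RIG-I replicate 1 (median 0.27). Of the 18 GTPases, 15 were lower in control replicate 2 and 17 higher in RIG-I replicate 2. Mx1 is an example, with 4.67 and 83.7 CPM in the libraries numbered 1 and 2.88 and 155 CPM in those numbered 2. MHC class I and NF-kB genes differed from this. Of 26 class I genes, 22 were lower in control replicate 2 and 20 lower in RIG-I replicate 2, and of 27 cytokine and NF-kB target genes 21 and 23 were lower. All 9 chemokine genes were lower in RIG-I replicate 2. Among the genes named for opposite replicate differences, Ifi27l2a was at 3.27 and 1.73 CPM in the controls and 13.0 and 62.4 CPM with the RIG-I agonist (log2 3.91, SE 0.86), and was not called (adjusted p = 0.176).

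Called genes had narrower replicates, higher levels and larger changes than genes with a change that was not called. These quantities enter the test itself, so the contrast describes how calls were made. Over 489 genes at least 2-fold higher without overlap, the 179 called had a median of 0.57 for the larger of the 2 replicate differences (log2) and a median mean level of 5.84 log2 CPM. The 310 not called had medians of 0.84 and 1.69. The median log2 change was 3.6 in the called and 1.62 in the others. Among genes 2 to 4-fold higher, 39 of 258 were called, and none of the 39 had replicates 2-fold apart in either group. Among those at least 8-fold higher, 107 of 176 were called, 41 of them with replicates at least 2-fold apart. On the lower side, 128 genes were at least 2-fold lower without overlap and not called, at a median mean level of 1.51 log2 CPM.

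**Figure D5:**
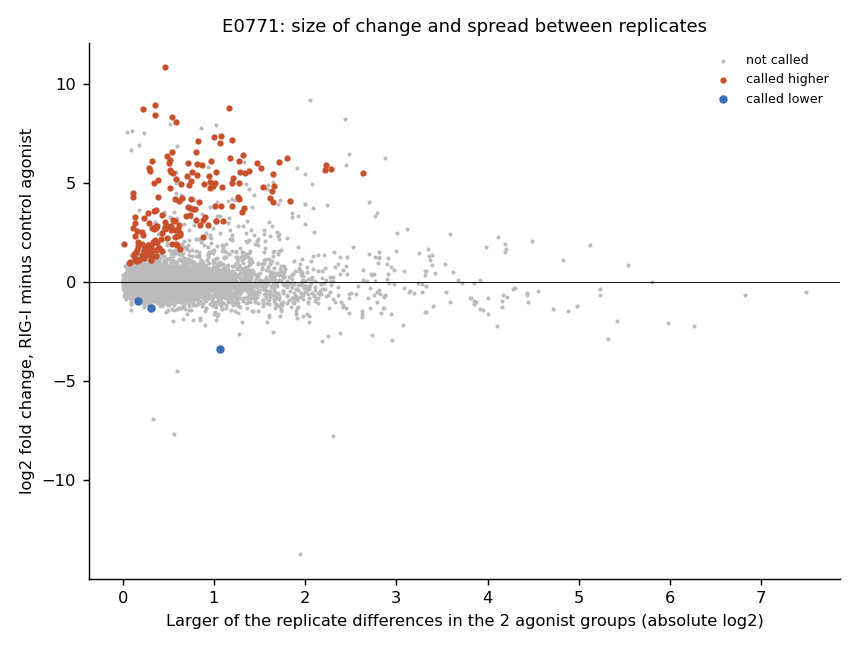
Log2 fold change of 11728 genes in E0771 against the larger of the replicate differences within the 2 agonist groups (absolute log2 values). Red points were called higher (180), blue points lower (3) and grey points were not called. Genes with changes of 2 to 4-fold were called only where replicates differed by less than 1 on the log2 scale.

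The E0771 response was set against that of the other lines in 1 fit of all 14 libraries with 14657 genes, which shares 1 estimate of the spread although E0771 varied most. The E0771 change exceeded that of MC38 in 265 genes (1.81%) and fell short of it in 44 (0.3%). Against CT26 these were 412 (2.81%) and 156 (1.06%). The count against MC38, 309 in all, was 476 without E0771 control replicate 1 and 477 without E0771 RIG-I replicate 2, and that against CT26, 568 in all, was 863 without E0771 RIG-I replicate 1. Of 65 antiviral genes, 51 had a larger change in E0771 than in MC38 and 47 a larger one than in CT26, and none a smaller one. Of 19 GTPases the counts were 15 and 16.

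Zbp1 and Isg15 had larger changes and lower control levels in E0771 than in either other line. The tables of the 3 lines were normalized separately, so these levels are set side by side with no test. Zbp1 stood at 0.234 and 0.411 CPM in the E0771 controls, against means of 22.4 in MC38 and 47.0 in CT26, and at 101 and 118 CPM with the RIG-I agonist, against 269 and 513. Its change was 4.80 log2 units larger in E0771 than in MC38 (SE 0.25, adjusted p = 3.17e-07) and 4.98 larger than in CT26 (SE 0.23, adjusted p = 2.59e-07). Isg15 behaved alike, with controls at 20.4 and 10.2 CPM against 115 and 200, 441 and 440 CPM with the RIG-I agonist against 376 and 890, and a change 3.13 and 2.73 log2 units larger (adjusted p = 7.76e-05 and 0.000136). Cxcl10 differed from MC38 by 3.33 (adjusted p = 3.46e-06) and from CT26 by 0.10 (SE 0.21, adjusted p = 0.91). For Ifnb1 the differences were 2.67 (SE 1.68, adjusted p = 0.567) and -1.29 (SE 1.87, adjusted p = 0.826). Cdkn1a, the p53 target that rose in E0771, had a change 1.31 log2 units larger than in MC38 and 1.34 larger than in CT26 (adjusted p = 2.72e-05 and 1.02e-05). The 13 mitochondrially encoded genes had a median change of -1.72 in this fit in E0771, -0.70 in MC38 and -0.17 in CT26. Against MC38 none of them differed by the edgeR test, and against CT26 1 was lower.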

How the data were processed

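Messenger RNA of E0771 cells was compared between 2 control-agonist and 2 RIG-I-agonist libraries, grouped by the labels. The deposited table of this line holds estimated counts per gene, which the authors made with Salmon on GRCm38, per the submitters' processing notes (DESeq2 is also named there). Versions and the counting strand setting are not given in the sources used here. Of 34866 rows, 34652 were matched to a gene name. Estimated counts were rounded, filtered (filterByExpr, minimum count 10), scaled by TMM and tested with edgeR 4.0.16 in R 4.3.3 (quasi-likelihood F-test, robust, Benjamini-Hochberg adjusted p under 0.05). Totals of 12413347 to 13399247 counts per library limit precision at low counts. Differences between lines were interaction terms in 1 fit of 14 libraries. Alternatives were RLE scaling, no filter, DESeq2 1.42.0, limma 3.58.1 voom, no robust fit, protein-coding genes only, a shared spread, the replicate number as a block and each library left out. The fitting code was tested on simulated data.

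Named genes were a fixed set of pathway genes, up to 5 called members per list with the largest change and all that fell, the 10 largest outside the lists, the widest replicate differences, and the 4 largest line differences in each direction. Other genes named without a call, or beyond these numbers, were chosen after their values were seen. The members and lists were chosen with earlier results of these data known. A few items are not reported here.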

Additional observations from a re-analysis of the deposited data

Results flagged for a closer look

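Genes whose change differed most between E0771 and another line are given here because the interaction term passed the edgeR test. Differences are log2 changes in E0771 minus those in the other line. Where the E0771 controls had no counts, the fitted difference depends on the small prior count of the fit and is no bound.

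Against MC38, E0771 had the larger change in 9130208D14Rik (11.248, adjusted p = 0.00434, with 17 counts under the RIG-I agonist and 3 counts in the MC38 controls), Gm20683 (9.369, adjusted p = 0.00117), Tgtp2 (8.687, adjusted p = 0.00229) and Kalrn (7.788, adjusted p = 0.000955). All 4 had no counts in the E0771 controls. In the edgeR test of E0771 alone, Gm20683 (adjusted p = 0.0759) and Kalrn (0.147) were not called, and 9130208D14Rik was not tested. Kalrn reached only 0.870 and 1.39 CPM with the RIG-I agonist in E0771, against means of 9.995 and 9.41 CPM in the MC38 controls and RIG-I libraries. The difference was negative for Htatip2 (-2.044, adjusted p = 0.0499), Ifi213 (-1.955, adjusted p = 0.0441), Hid1 (-1.929, adjusted p = 7.72e-05) and Dusp28 (-1.528, adjusted p = 0.0483). Ifi213 rose less in E0771 (1.505) than in MC38 (3.461). The others had opposite signs in E0771 and MC38: Htatip2 -0.421 and 1.623, Hid1 -0.87 and 1.059, Dusp28 -0.573 and 0.955. Htatip2 had only 7 control and 24 RIG-I counts in MC38. Leaving out E0771 libraries ended these calls for Htatip2 (either control, adjusted p = 0.0502 and 0.0878), Ifi213 (control replicate 1, 0.0757, and RIG-I replicate 1, 0.0669) and Dusp28 (control replicates 1 and 2, 0.0851 and 0.0772, and RIG-I replicate 1, 0.0759).

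Against CT26, the larger changes in E0771 were those of Gm37988 (9.921, adjusted p = 0.0436), Tgtp2 (9.616, adjusted p = 0.000344), Gm49378 (9.192, adjusted p = 0.0257) and Gm20683 (8.402, adjusted p = 0.0025), again with no counts in the E0771 controls. The smaller ones were those of Krt16 (-6.934, adjusted p = 0.000542), Trpc1 (-5.04, adjusted p = 0.00116), Ccl4 (-4.61, adjusted p = 0.0227) and Acod1 (-4, adjusted p = 0.0188), and in CT26 the controls held 1, 1, 11 and 1 counts of these genes. With the RIG-I agonist Krt16 was at 17.5 and 10.3 CPM in E0771, against a mean of 14.3 in CT26, and Acod1 at 15.97 and 11.2 against 14.9. Ccl4 was at 7.04 and 3.08 against 44.6, and Trpc1 at 6.09 and 8.79 against 0.489. Gm37988 was not called with any 1 of the 4 E0771 libraries left out (0.0887 to 0.167), nor Gm49378 without either control or RIG-I replicate 1 (0.07 to 0.09). Ccl4 lost its call without either control (0.145 and 0.1) and Acod1 without control replicate 2 (0.172).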

How the results depend on the processing

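E0771 genes called higher (180) numbered 370 with DESeq2, 949 with 1 spread shared by 14 libraries and 1243 with the replicate block. Genes called lower (3) numbered 22 with no filter, 45 with DESeq2, 639 with the shared spread, 1215 with the replicate block and 2 to 8 with single libraries left out. Only 2 replicate numbers exist and the labels do not say what they share, so the paired fit is kept apart from the main calls. Deviations of same-numbered libraries correlated across genes (r = 0.759 over 9396 genes, which are not independent replicates). With the replicate block 10 of 13 mitochondrially encoded, 12 of 24 cholesterol and 20 of 44 cell cycle genes were called lower, where the main fit called none. The same held for 11 of 32 nuclear-encoded oxidative phosphorylation genes. The block called 11 of 22 p53 targets higher. Adar and Irf9 also passed (adjusted p = 0.000116 and 0.000196). Antiviral genes called higher fell from 54 to 45 and GTPases from 17 to 13. Genes called higher went from 11 to 21 of 26 in MHC class I and from 5 to 23 of 27 in cytokines and NF-kB targets. In chemokines they went from 3 to 7 of 9, and in programmed cell death from 4 to 13 of 33. DESeq2 called 3 p53 targets higher and the shared spread 10. Differences from MC38 (309 genes) numbered 499 with DESeq2, 181 with limma voom and 1 spread per group, 880 with the replicate block within line and 257 to 477 with single libraries left out. Those from CT26 (568) numbered 218 with limma voom, 1537 with the block and 471 to 863 with single libraries left out.

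Signs reversed for genes that were not called, and the cause was not tested. Leaving out single libraries gave log2 changes of -0.264 to 0.083 for Irf3, -0.128 to 0.688 for Actb, -0.365 to 0.331 for Gapdh, -1.449 to 0.894 for Hmgcs1, -1.631 to 1.191 for Idi1, -1.924 to 0.08 for Mvd, -1.037 to 0.918 for Msmo1 and -1.925 to 0.276 for mt-Nd5. Gapdh was also at -0.002 with limma voom and -0.006 with the replicate block. Of all other values, 1735 kept their direction and side of the threshold, 161 newly passed it and 121 no longer did. At low counts, depth limits what could be detected.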
